A study of Glycine max with 108 samples.

Results

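Lipoxygenases are dioxygenases that add oxygen to linoleic and linolenic acid and release fatty acid hydroperoxides. In leaves these products feed the synthesis of jasmonates and of volatile aldehydes, and soybean seeds store abundant lipoxygenase proteins that are known for the beany flavour of soy products. Soybean leaves also hold lipoxygenases that behave as vegetative storage proteins, which accumulate when the pods are removed.

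The genes described here are 8 soybean lipoxygenase genes of the 57147 features listed in each of the 2 deposited expression tables. They were chosen by ID from a list that gives 3 of them as seed lipoxygenases, LOX1 (GLYMA_13G347600), LOX2 (GLYMA_13G347500) and LOX3 (GLYMA_15G026300), and 5 as other lipoxygenases, GLYMA_13G347700, GLYMA_15G026400, GLYMA_15G026500, GLYMA_07G034800 and GLYMA_07G034900. The files give IDs without gene names, and no ID matched the RefSeq gene table of the assembly Glycine_max_v4.0, so the lipoxygenase identity of the 8 IDs comes from the list and was not checked, and the other 5 are given by ID alone. Other lipoxygenases could not be looked up, and below, the family means these 8 genes only. Of the 8 genes, 5 in leaves and 6 in flowers averaged 1 FPKM or more in that tissue, the level required for testing. The unit FPKM corrects the number of sequenced fragments for the length of a transcript and the size of a library.

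RNA-seq libraries came from leaves and flowers of soybean (Glycine max) cultivar Magellan, 31 days old, and each library pooled tissue of 5 to 7 plants. All plants, controls included, grew from seeds coated with Bradyrhizobium japonicum, the bacterium that nodulates soybean. The single stresses were 15 mM salinity, a nutrient solution of pH 4 (acidity), irrigation cut to 30% of transpirable water (water deficit), phosphate lowered by 90%, and 300 µM cadmium. All of these but cadmium were also combined in all 6 pairs, all 4 triples and the 4-stress combination, and a 5-stress combination added cadmium. The pH and the phosphate level are given for the single stresses only. Control plants received the nutrient solution without stress and full irrigation.

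The labels name 3 replicates for each of 18 treatments in each tissue. In 4 columns, leaf control replicate 3 and replicate 1 of flower acidity, flower water deficit and the flower 4-stress combination, the values equalled the mean of the group's other 2 columns, so these were left out and n = 2 in those groups. This left 53 leaf and 51 flower libraries. The absolute depth of the libraries is unknown. Relative depth, read from the steps of the lowest values, was 0.871 to 1.23 in leaves, with both leaf controls at 1.16 and 1.23, and 0.895 to 1.20 in flowers. The marker genes of leaf, flower, seed and nodule tissue could not be looked up without gene names, so the tissue labels were not checked. In bulk tissue, fewer cells of a type and less RNA per cell cannot be told apart.

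The seed lipoxygenases were at or near 0 in leaves. LOX1 was listed at 0 in 52 of the 53 leaf libraries and reached 0.0242 FPKM in the other one. LOX2 was listed at 0 in 33 leaf libraries, with a highest value of 0.0845 FPKM, and LOX3 in 48, with a highest value of 0.0351 FPKM. No treatment raised any of the 3 to the 1 FPKM needed for testing, and an exact 0 in an FPKM table can also be a failed estimate.

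In flowers LOX3 was the one seed lipoxygenase above that level, at 0.676 to 2.13 FPKM with a median of 1.15 over 51 libraries. LOX1 was listed at 0 in 44 flower libraries and did not exceed 0.0304 FPKM. LOX2 was listed at 0 in 7 flower libraries and had a median of 0.0614 and a highest value of 0.397 FPKM. That highest value was in a cadmium library.

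The other 5 lipoxygenases were detected in every library of both tissues. In leaves GLYMA_15G026500 had the highest level of the 5, 173 to 493 FPKM with a median of 350, which placed it at rank 215 of all features by mean. GLYMA_13G347700 followed at 32.4 to 131 FPKM (median 70.2), GLYMA_07G034900 at 9.55 to 119 FPKM (median 25.1), GLYMA_15G026400 at 3.50 to 25.5 FPKM (median 14.1) and GLYMA_07G034800 at 2.14 to 12.4 FPKM (median 5.95). Of the summed FPKM of the 8 listed genes in leaves, GLYMA_15G026500 made up a median of 74.4%.

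In flowers the same 5 genes were among the most abundant transcripts of the table. GLYMA_15G026400 lay between 661 and 1549 FPKM and held rank 15 of all features by mean, and GLYMA_15G026500 lay between 634 and 1465 FPKM and held rank 16. GLYMA_07G034800 lay between 383 and 727 FPKM (rank 47), GLYMA_07G034900 between 209 and 399 FPKM (rank 151) and GLYMA_13G347700 between 165 and 359 FPKM (rank 181). The summed level of the 8 genes was 249 to 697 FPKM in leaf libraries, with a median of 468, and 2057 to 4220 FPKM in flower libraries, with a median of 3289. The tables of the 2 tissues hold different libraries that were normalised separately, so the levels stand side by side without a test.

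The make-up of the family also read differently in the 2 tables. GLYMA_15G026400, with a median share of 2.87% of the summed FPKM in leaves, held a median of 33.2% in flowers, next to 32.0% for GLYMA_15G026500. GLYMA_07G034800 held a median of 1.32% in leaves and 16.7% in flowers.

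**Figure D1:**
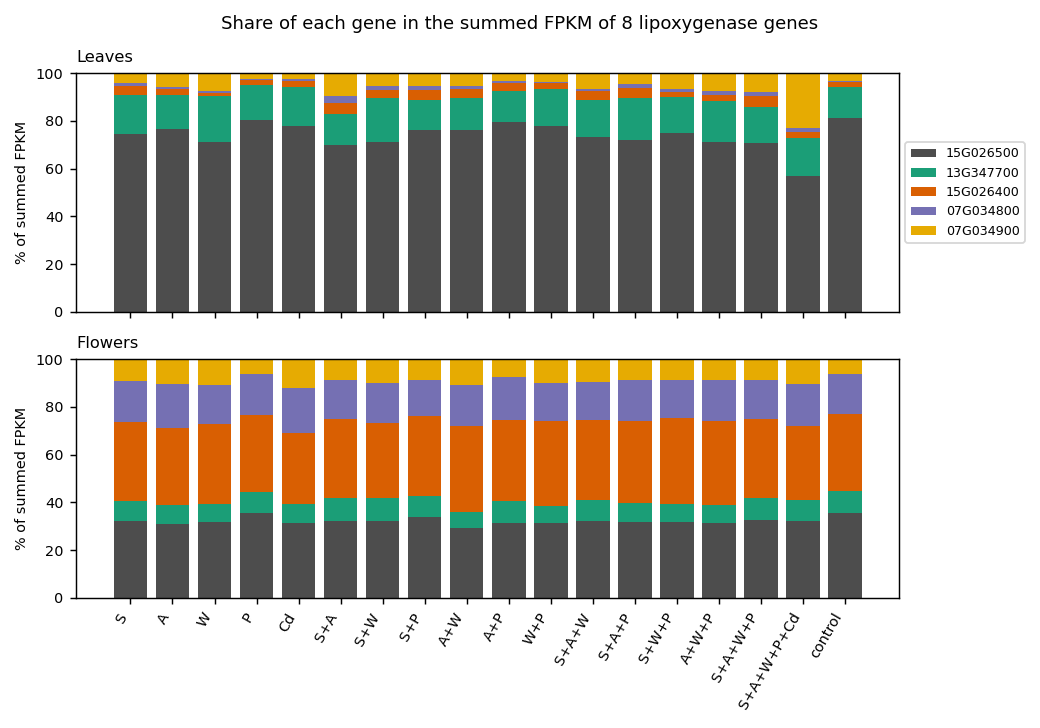
Share of each lipoxygenase gene in the summed FPKM of the 8 genes, in percent, by treatment (group means), in leaves above and flowers below; LOX1, LOX2 and LOX3 together are too small to be seen. S is salinity, A acidity, W water deficit, P low phosphate and Cd cadmium. GLYMA_15G026500 fills most of every leaf bar, and GLYMA_07G034900 widens from 3.15% in leaf controls to 23.1% in the leaf 5-stress combination.

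Changes are given below on the log2(FPKM + 1) scale as the stressed group minus its control, with the standard error of a limma fit over all treatments of a tissue. A gene was called changed when its p-value, adjusted by the Benjamini-Hochberg method over all tested features, was under 0.05. All 17 treatments were set against the same controls, 2 libraries in leaves and 3 in flowers, so the 17 comparisons are not independent of each other. Whether reads were split among near-identical copies of these genes was not tested, and counts of members should be read with that in mind.

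In leaves most changes were rises. Over 17 treatments and 5 genes, 54 of 85 comparisons were called, 49 higher and 5 lower. The share of all tested features called ran from 3.82% to 70.1% over the same treatments. Taken over these treatments together, all tested features had 20.2% called higher and 25.2% lower. GLYMA_07G034800 and GLYMA_07G034900 were each higher in 13 treatments and lower in none. GLYMA_13G347700 was higher in 11 and lower in 1, GLYMA_15G026400 higher in 10 and lower in 1, and GLYMA_15G026500 higher in 2 and lower in 3.

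**Figure D2:**
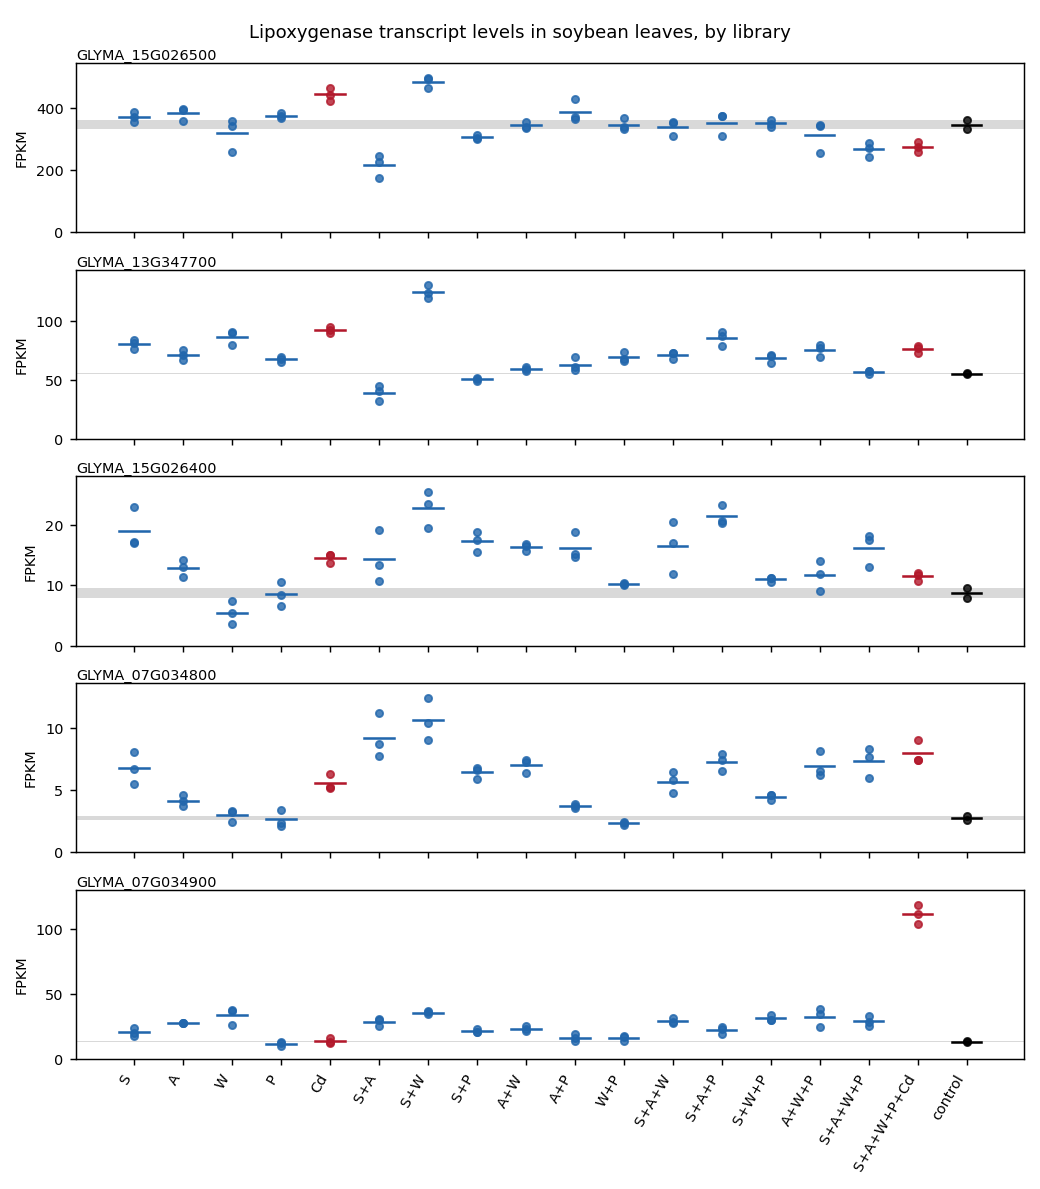
FPKM of the 5 lipoxygenase genes expressed in leaves, 1 point per library, with a line at the mean of each treatment; the grey band spans the 2 control libraries, blue marks treatments of the 4-stress factorial, red those with cadmium and black the control. S is salinity, A acidity, W water deficit, P low phosphate and Cd cadmium. The 3 libraries of the 5-stress combination stand at 104 to 119 FPKM for GLYMA_07G034900, and no other leaf library exceeds 38.5 FPKM.

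The largest change of a member against control was that of GLYMA_07G034900 in leaves under all 5 stresses. Its level was 104, 119 and 112 FPKM in the 5-stress combination, against 13.6 and 13.1 FPKM in controls. The mean of 111 ± 7.36 FPKM (SD, n = 3) was 8.33 times the control mean of 13.4 ± 0.380 FPKM (SD, n = 2). All 3 stressed libraries lay above every other leaf library, the highest of which was at 38.5 FPKM. The change was 2.96 ± 0.16 (SE, limma adjusted p = 5.23e-20), in a comparison where 60.3% of all tested features were called. In that comparison 3 members were called higher, as were 34.6% of features, and GLYMA_15G026500 was called lower, as were 25.7%. The fall of GLYMA_15G026500, -0.33 ± 0.12 (SE, limma adjusted p = 0.0131), was lost without replicate 1.

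Neither cadmium alone nor the 4 other stresses together reached that level. GLYMA_07G034900 was at 12.1, 12.6 and 16.1 FPKM under cadmium alone, a range that overlaps the controls, and the change was 0.01 ± 0.16 (SE, limma adjusted p = 0.962). In the 4-stress combination it was at 33.0, 28.5 and 25.3 FPKM, all above the controls and all below the 5-stress libraries. The 5-stress minus the 4-stress combination gave 1.91 ± 0.14 (SE, limma adjusted p = 5.52e-15), where 51.5% of all tested features were called. GLYMA_13G347700 was the other member higher under 5 than under 4 stresses, by 0.43 ± 0.08, and GLYMA_15G026400 was lower, at -0.45 ± 0.18 (SE, limma adjusted p = 1.07e-05 and 0.0346), where 28% of features were called higher and 23.5% lower. The call for GLYMA_15G026400 was lost without the filter on low values and without replicate 1 or 2. For GLYMA_07G034900 the effect of cadmium on top of the 4 stresses, minus its effect alone, was 1.90 ± 0.21 (SE, limma adjusted p = 3.63e-10), where 55.9% of features were called and 33.2% were called higher.

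In GLYMA_07G034800 cadmium on top of the other stresses gave no such rise. This gene, whose ID is next to that of GLYMA_07G034900, was at 7.45, 9.03 and 7.43 FPKM under 5 stresses and at 8.35, 7.67 and 5.95 FPKM under 4, with a difference of 0.11 ± 0.13 and an interval from -0.16 to 0.38 (SE, limma adjusted p = 0.496). Its effect of cadmium on top of the 4 stresses, minus that of cadmium alone, was negative, at -0.70 ± 0.20 (SE, limma adjusted p = 0.003). The same difference was -1.14 ± 0.27 for GLYMA_15G026400 and -0.31 ± 0.11 for GLYMA_13G347700 (SE, limma adjusted p = 0.000504 and 0.0206). These 3 members were called lower, as were 22.7% of features. The call for GLYMA_15G026400 was lost without replicate 2, and that for GLYMA_13G347700 without replicate 1 or 2. For GLYMA_15G026500 it was -0.31 ± 0.16 and was not called (SE, limma adjusted p = 0.0893).

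Among the single stresses in leaves, salinity and cadmium called 4 of the 5 genes each, all higher. The share of all features called was 41.5% for salinity and 47.2% for cadmium, and 17.4% and 18% were called higher. Under salinity GLYMA_07G034800 was at 6.70, 8.10 and 5.50 FPKM, against 2.91 and 2.59 FPKM in controls, a change of 1.04 ± 0.15 (SE, limma adjusted p = 2.89e-07). GLYMA_15G026400 was at 17.1, 22.9 and 16.9 FPKM under salinity, against 9.47 and 7.91 FPKM in controls, a change of 1.04 ± 0.20 (SE, limma adjusted p = 6.32e-05). The groups did not overlap for either gene, and both calls held under every alternative tried. The salinity call for GLYMA_07G034900 was lost without replicate 1 or 2, as was the cadmium call for GLYMA_15G026500, and the cadmium call for GLYMA_15G026400 without replicate 2. GLYMA_13G347700 rose as well, by 0.53 ± 0.09 under salinity and 0.73 ± 0.09 under cadmium (SE, limma adjusted p = 2.22e-06 and 2.2e-09).

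Acidity and water deficit alone each called 3 of the 5 genes in leaves. All 3 were higher under acidity, where 12.2% of features were called and 6.49% higher, and 2 were higher and 1 lower under water deficit, where 24.1% were called, 5.88% higher and 18.2% lower. GLYMA_07G034900 was at 27.3, 27.6 and 27.9 FPKM under acidity and at 26.1, 37.0 and 37.5 FPKM under water deficit, against 13.6 and 13.1 FPKM in controls. Every one of these stressed libraries was above both controls, and the changes were 0.99 ± 0.16 and 1.25 ± 0.16 (SE, limma adjusted p = 8.25e-06 and 5.96e-08). Of the 3 acidity calls this one held under every alternative. That for GLYMA_07G034800 was lost without the filter on low values, without any 1 of the replicate numbers and when only the groups compared were fitted, and that for GLYMA_13G347700 without replicate 1 or 2 and when only the groups compared were fitted. GLYMA_15G026400 went the other way under water deficit, at 3.50, 7.41 and 5.40 FPKM against 9.47 and 7.91 FPKM in controls, a change of -0.63 ± 0.20 (SE, limma adjusted p = 0.0197). That call was lost when libraries were scaled to a common median ratio, without replicate 1, and when only the groups compared were fitted. Low phosphate alone called none of the 5 genes (limma), where 3.82% of all features were called, and 1 gene had an unadjusted p under 0.05.

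**Figure D3:**
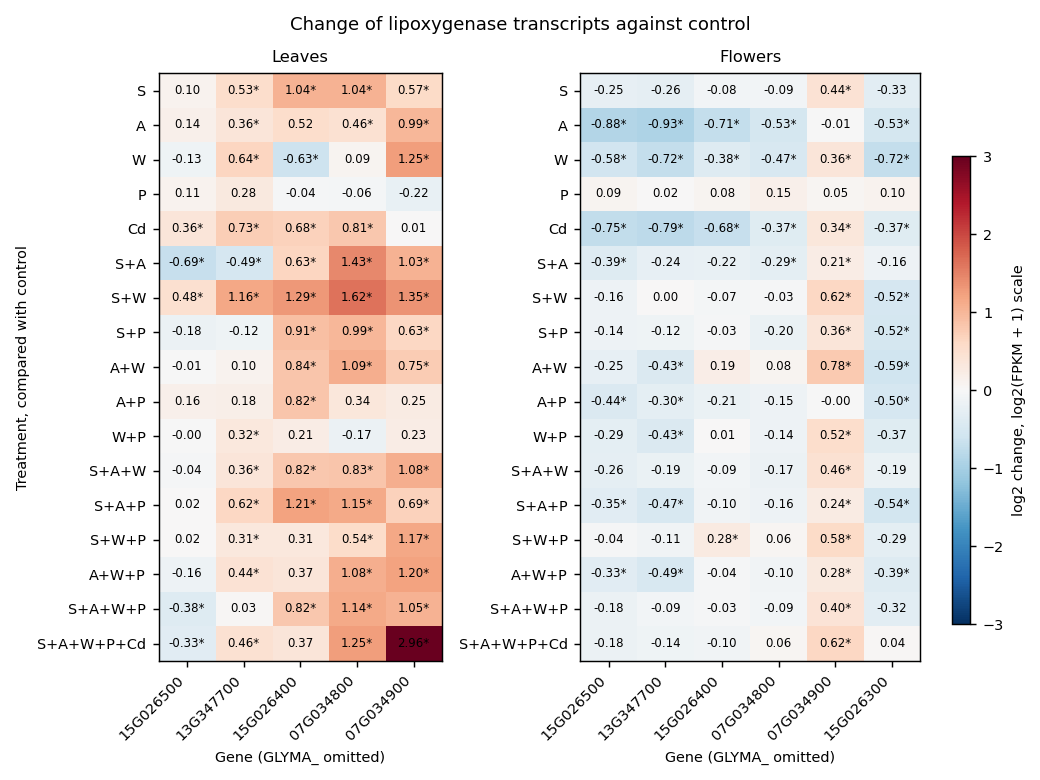
Change of each tested lipoxygenase gene in each treatment against control, on the log2(FPKM + 1) scale, in leaves (left, 5 genes) and flowers (right, 6 genes, LOX3 last); red is higher and blue lower than control, and an asterisk marks a limma adjusted p under 0.05. S is salinity, A acidity, W water deficit, P low phosphate and Cd cadmium. The leaf panel is mostly red, with its largest value, 2.96, for GLYMA_07G034900 in the 5-stress combination; in the flower panel that gene is red and the others mostly blue.

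Different pairs of stresses stood at opposite ends for the abundant leaf members. Salinity combined with water deficit called all 5 genes higher, where 52.4% of features were called and 22.2% were called higher. GLYMA_13G347700 was at 131, 124 and 120 FPKM under this pair, against 55.1 and 55.7 FPKM in controls, and the 50 leaf libraries outside the pair did not exceed 95.3 FPKM. Its change was 1.16 ± 0.09 (SE, limma adjusted p = 7.02e-15). GLYMA_15G026500 was at 491, 493 and 462 FPKM under the pair, against 358 and 332 FPKM in controls, a change of 0.48 ± 0.12 (SE, limma adjusted p = 0.000607). GLYMA_07G034800 had its highest group mean here too, 10.6 ± 1.68 FPKM (SD, n = 3), which was 3.86 times that of controls. The summed level of the 8 genes was 649 to 697 FPKM under the pair, against 411 and 439 FPKM in controls.

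Salinity combined with acidity gave the lowest group means of the family's leading leaf genes. GLYMA_15G026500 was at 226, 173 and 246 FPKM under this pair, against 358 and 332 FPKM in controls, a change of -0.69 ± 0.12 (SE, limma adjusted p = 1.4e-06). GLYMA_13G347700 was at 41.1, 32.4 and 44.8 FPKM, against 55.1 and 55.7 FPKM in controls, a change of -0.49 ± 0.09 (SE, limma adjusted p = 2.67e-06), and the other 50 leaf libraries were all at 48.8 FPKM or more. In the same 3 libraries the 2 genes numbered 07G034800 and 07G034900 were higher than in controls. GLYMA_07G034800 was at 8.69, 7.78 and 11.2 FPKM, against 2.91 and 2.59 FPKM in controls, a change of 1.43 ± 0.15 (SE, limma adjusted p = 3e-11). GLYMA_07G034900 was at 30.0, 25.1 and 30.4 FPKM, against 13.6 and 13.1 FPKM in controls, a change of 1.03 ± 0.16 (SE, limma adjusted p = 2.05e-07). Salinity with acidity was the treatment that changed most of the leaf transcriptome, with 70.1% of features called, 37.8% higher and 32.3% lower, so 5 of 5 called members is to be read against that share. The call for GLYMA_15G026400 under this pair was lost without replicate 3.

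Under the other combinations in leaves the rises were mostly those of GLYMA_07G034800, GLYMA_07G034900 and GLYMA_15G026400. Salinity with low phosphate and acidity with water deficit each raised these 3 genes, where 49.2% and 50.1% of features were called and 25.2% and 27.3% higher. Under acidity with water deficit GLYMA_07G034800 was at 7.26, 7.39 and 6.36 FPKM, against 2.91 and 2.59 FPKM in controls. Its change of 1.09 ± 0.15 (SE, limma adjusted p = 5.5e-08) compares with 0.46 ± 0.15 under acidity alone and 0.09 ± 0.15 under water deficit alone (SE, limma adjusted p = 0.0351 and 0.717). The 2 other pairs with low phosphate called 1 gene each, GLYMA_15G026400 with acidity and GLYMA_13G347700 with water deficit, where 45.9% and 46.3% of features were called and 23.8% and 13% higher. Without replicate 2 the calls for GLYMA_07G034900 under salinity with low phosphate and for GLYMA_15G026400 under acidity with water deficit were lost, and without replicate 1 that for GLYMA_13G347700 under water deficit with low phosphate.

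Of the triples in leaves, salinity with acidity and either water deficit or low phosphate raised 4 of the 5 genes, all but GLYMA_15G026500, where 55.2% and 52.4% of features were called and 24.5% and 20.6% higher. GLYMA_15G026400 was at 20.7, 23.2 and 20.3 FPKM under salinity, acidity and low phosphate, against 9.47 and 7.91 FPKM in controls, a change of 1.21 ± 0.20 (SE, limma adjusted p = 3.82e-06). The remaining triples raised 3 genes each, GLYMA_07G034800, GLYMA_07G034900 and GLYMA_13G347700, where 44.8% of features were called with salinity and 57.4% with acidity, and 23.1% and 14.4% higher. In the 4-stress combination 3 genes were higher and GLYMA_15G026500 was lower, where 57.6% of features were called, 28% higher and 29.6% lower. GLYMA_15G026500 was at 271, 285 and 241 FPKM there, against 358 and 332 FPKM in controls, and its change of -0.38 ± 0.12 (SE, limma adjusted p = 0.00514) was lost without replicate 1. Without replicate 2 the rise of GLYMA_15G026400 was lost there and under salinity, acidity and water deficit, and that of GLYMA_07G034800 under salinity, water deficit and low phosphate.

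The 16 treatments without cadmium form a complete factorial. In it a main effect is the mean of the 8 treatments with a stress minus the mean of the 8 without it. Its sign can differ from that of the stress alone against control. In leaves salinity raised GLYMA_07G034800 by 0.74 ± 0.05, GLYMA_15G026400 by 0.62 ± 0.07 and GLYMA_07G034900 by 0.39 ± 0.05, and lowered GLYMA_15G026500, by 0.10 ± 0.04 (SE, limma adjusted p = 2.88e-16, 5.12e-10, 1.16e-08 and 0.0235). These 4 of 5 genes called, 3 higher and 1 lower, compare with 70.7% of all features, 38.8% higher and 31.9% lower. The effect on GLYMA_15G026500 was lost without replicate 2. The 24 salinity libraries of the factorial had a median of 6.75 FPKM for GLYMA_07G034800 (4.20 to 12.4), and the 23 without salinity a median of 3.53 FPKM (2.14 to 8.15), so the ranges overlap.

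Acidity had 5 of 5 genes called in leaves, where 61.8% of features were called, 32.3% higher and 29.5% lower, and split the family. It raised GLYMA_07G034800 by 0.43 ± 0.05, GLYMA_15G026400 by 0.37 ± 0.07 and GLYMA_07G034900 by 0.26 ± 0.05. Averaged over the other stresses, it lowered GLYMA_13G347700, with an effect of -0.19 ± 0.03, and GLYMA_15G026500, with an effect of -0.17 ± 0.04 (SE, limma adjusted p from 7.97e-10 to 0.000294 over the 5 genes). Acidity alone went the other way for these 2 genes, at 1.29 and 1.11 times their control means. GLYMA_13G347700 was called higher there, and GLYMA_15G026500, whose libraries overlapped the controls, was not called. Water deficit raised GLYMA_07G034900 by 0.52 ± 0.05 and GLYMA_13G347700 by 0.25 ± 0.03 (SE, limma adjusted p = 1.03e-10 and 4.1e-09), 2 of 5 genes where 50% of features were called and 16.5% higher. Low phosphate had 3 genes called, all lower, where 32.8% of features were called and 24.2% lower: GLYMA_07G034900 at -0.25 ± 0.05, GLYMA_07G034800 at -0.19 ± 0.05 and GLYMA_13G347700 at -0.08 ± 0.03 (SE, limma adjusted p = 0.000188, 0.00226 and 0.0391). The GLYMA_13G347700 effect of low phosphate was lost under scaling, without the filter on low values and without any 1 of the 3 replicate numbers. That on GLYMA_07G034800 was lost without replicate 3. Low phosphate alone put GLYMA_13G347700 at 1.22 times its control mean, a change that was not called.

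An interaction is the effect of 1 stress when a second is present minus its effect when the second is absent, averaged over the other 2 stresses. Its size and sign can therefore differ from those of the pair alone. In leaves GLYMA_13G347700 averaged 39.4 FPKM under salinity with acidity, below salinity (80.7) and acidity (71.4) alone. With low phosphate added to each, the means were 85.7 FPKM for both, 50.7 for salinity and 63.2 for acidity. The interaction of salinity and acidity in leaves was negative and called for all 5 genes, at -0.77 ± 0.14 for GLYMA_15G026400, -0.69 ± 0.10 for GLYMA_07G034800, -0.45 ± 0.10 for GLYMA_07G034900, -0.42 ± 0.08 for GLYMA_15G026500 and -0.30 ± 0.06 for GLYMA_13G347700 (SE, limma adjusted p from 1.85e-07 to 0.000276). In this interaction 53.8% of all features were called and 27% were called lower. The 5 calls held under every alternative tried.

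GLYMA_13G347700 was called in all 6 interactions in leaves, and 4 of these calls held under every alternative tried. That of salinity and water deficit, 0.16 ± 0.06 (SE, limma adjusted p = 0.0221), was lost under scaling to the median ratio and without replicate 2 or 3. With acidity its low-phosphate effect was higher, by 0.62 ± 0.06 (SE, limma adjusted p = 5.04e-11), where 2 of the 5 genes were called, both higher, and 36.5% of features were called, 8.37% higher. Its interaction of water deficit with low phosphate was -0.43 ± 0.06 and that of acidity with water deficit -0.37 ± 0.06 (SE, limma adjusted p = 1.08e-07 and 4.22e-05). Each of these 2 interactions called 2 genes, both lower. For water deficit with low phosphate 38.9% of features were called and 20.9% lower, and for acidity with water deficit 6.07% and 2.29%. The second gene's call was lost without replicate 2 for acidity with low phosphate (GLYMA_07G034800) and for acidity with water deficit (GLYMA_07G034900). The interaction of salinity and water deficit was positive for GLYMA_15G026500, at 0.39 ± 0.08 (SE, limma adjusted p = 0.000114), and negative for GLYMA_07G034800, at -0.46 ± 0.10 (SE, limma adjusted p = 0.000288), where 38.1% of features were called, 26.6% higher and 11.5% lower. Salinity with low phosphate called GLYMA_13G347700 lower and GLYMA_07G034900 higher, where 30.8% of features were called, 7.58% lower and 23.2% higher. The call for GLYMA_07G034900, 0.26 ± 0.10 (SE, limma adjusted p = 0.0466), was lost under 6 of the alternatives, among them the replicate block, and that for GLYMA_13G347700, -0.21 ± 0.06 (SE, limma adjusted p = 0.00364), without replicate 1.

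**Figure D4:**
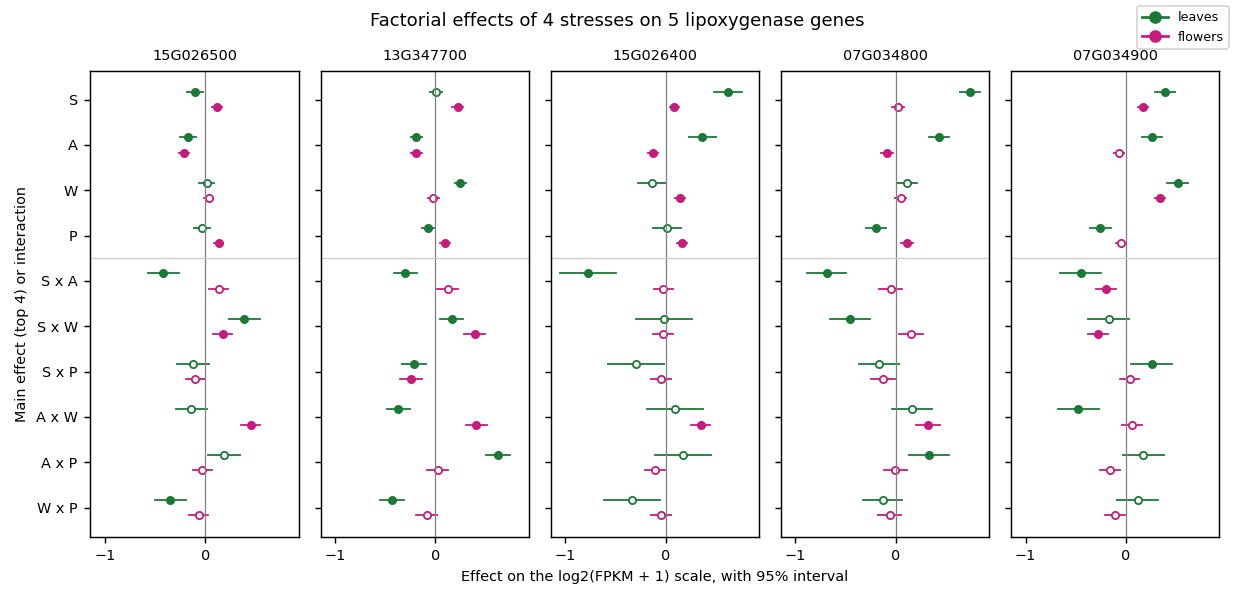
Main effects of salinity (S), acidity (A), water deficit (W) and low phosphate (P) and their pairwise interactions on 5 lipoxygenase genes, on the log2(FPKM + 1) scale, in leaves (green) and flowers (magenta); points are limma estimates, bars their 95% intervals, and filled points have an adjusted p under 0.05. In leaves the S x A interaction lies below 0 for all 5 genes, and in flowers the A x W interaction is positive and called for 4 of the 5.

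In flowers the family changed in a different pattern. Over 17 treatments and 6 genes, 46 of 102 comparisons were called, 15 higher and 31 lower, where the share of all features called ran from 1.87% to 30.2%. Taken over these treatments together, all tested features had 5.85% called higher and 3.68% lower. GLYMA_07G034900 accounted for 14 of the 15 rises, and the other was GLYMA_15G026400 under salinity with water deficit and low phosphate. The falls were spread over LOX3 (9 treatments), GLYMA_13G347700 (8), GLYMA_15G026500 (7), GLYMA_07G034800 (4) and GLYMA_15G026400 (3). Of the calls against control, 39 of the 54 in leaves and 14 of the 46 in flowers were kept in every alternative. None of the flower calls of LOX3 or GLYMA_07G034800 was. Leaf calls faced 9 alternatives and flower calls 10. How often the calls of all features were kept was not computed, so this shows nothing particular to these genes.

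**Figure D5:**
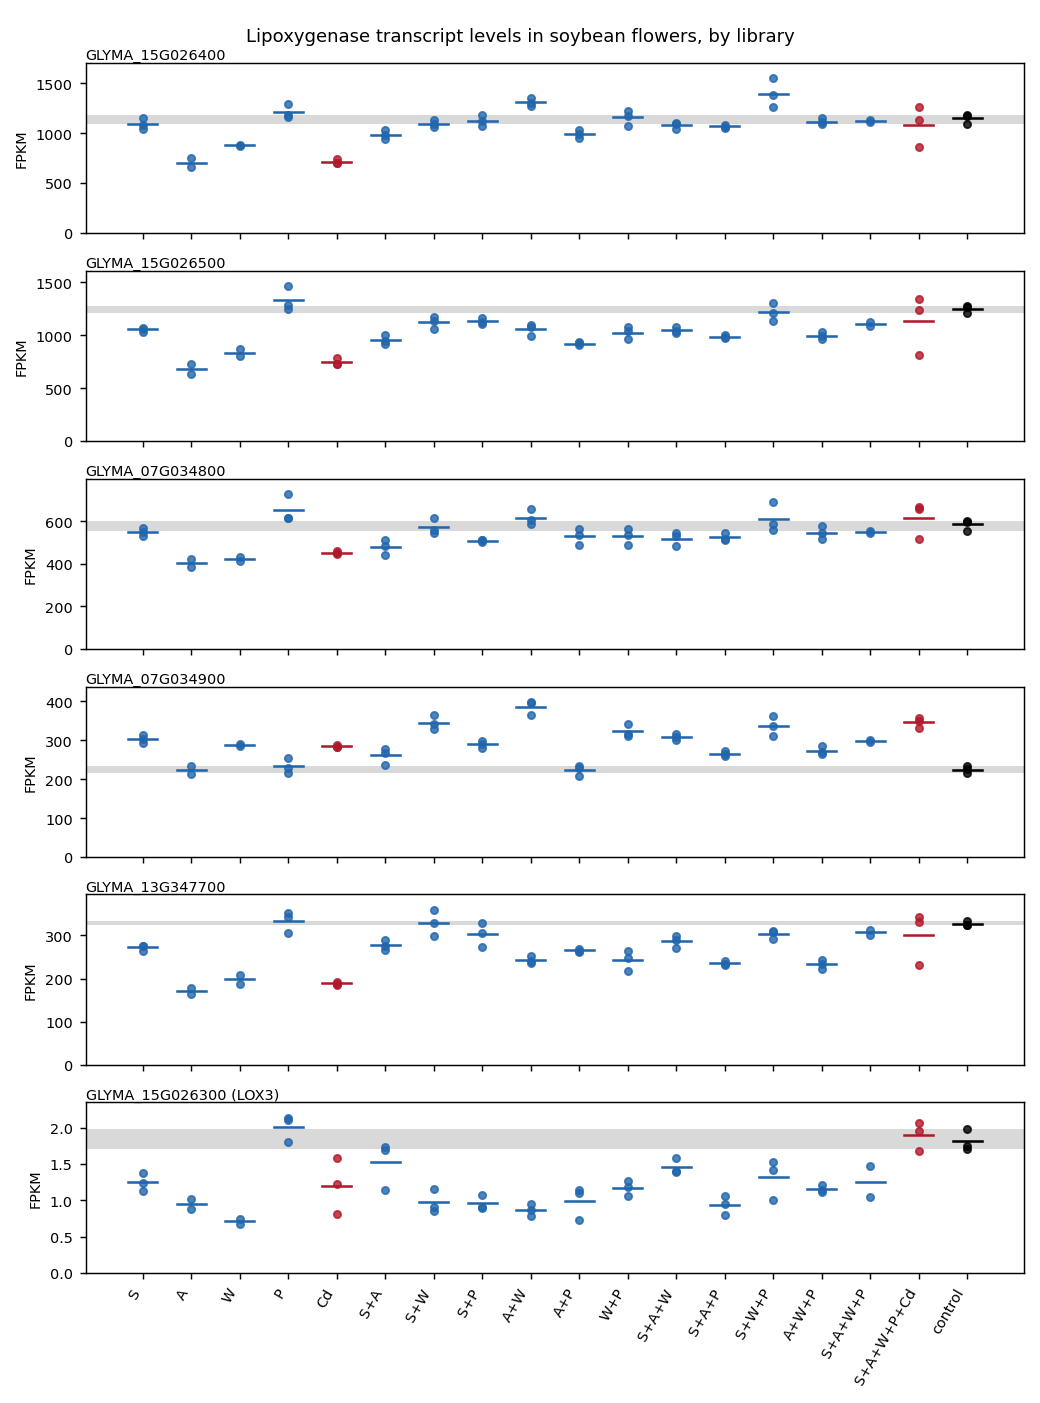
FPKM of the 6 lipoxygenase genes expressed in flowers, 1 point per library, with a line at the mean of each treatment; the grey band spans the 3 control libraries, blue marks treatments of the 4-stress factorial, red those with cadmium and black the control. S is salinity, A acidity, W water deficit, P low phosphate and Cd cadmium. Under acidity, water deficit or cadmium alone, all libraries of GLYMA_15G026400, GLYMA_15G026500, GLYMA_07G034800, GLYMA_13G347700 and LOX3 (GLYMA_15G026300) lie below the band, while those of GLYMA_07G034900 lie above it under water deficit and cadmium.

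Acidity, water deficit and cadmium, each alone, lowered the flower members other than GLYMA_07G034900. Acidity called 5 of the 6 genes, all lower, where 6.69% of all features were called and 2.16% were called lower. Water deficit called 5 lower and 1 higher, against 7.96% of features called, 3.02% lower and 4.95% higher, and cadmium did the same against 30.2% called, 11.4% lower and 18.8% higher. The gene called higher under water deficit and cadmium was GLYMA_07G034900. All 6 calls under water deficit were lost without replicate 3, and those of GLYMA_07G034800 and LOX3 under acidity and cadmium without replicate 2. Salinity alone called GLYMA_07G034900, higher, against 4.52% of features called and 2.4% higher, and low phosphate alone called none (limma), against 3.35% of features, with 0 genes at an unadjusted p under 0.05.

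GLYMA_15G026500 was at 634 and 724 FPKM under acidity, 870 and 801 FPKM under water deficit and 725, 727 and 783 FPKM under cadmium, against 1215, 1275 and 1266 FPKM in controls. None of these stressed libraries reached the lowest control. The changes were -0.88 ± 0.11 under acidity, -0.58 ± 0.11 under water deficit and -0.75 ± 0.10 under cadmium (SE, limma adjusted p = 3.61e-07, 0.000292 and 2.4e-07). The call under water deficit was lost without replicate 2 or 3, which leaves 1 library in that group.

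GLYMA_13G347700 fell the most under acidity, to 165 and 179 FPKM, against 324, 325 and 333 FPKM in controls, a change of -0.93 ± 0.10 (SE, limma adjusted p = 3.74e-08). Under cadmium it was at 186, 188 and 192 FPKM, a change of -0.79 ± 0.09 (SE, limma adjusted p = 2.43e-08). GLYMA_15G026400 was at 661 and 746 FPKM under acidity and at 703, 700 and 738 FPKM under cadmium, against 1093, 1166 and 1179 FPKM in controls. Its changes were -0.71 ± 0.09 and -0.68 ± 0.08 (SE, limma adjusted p = 1.29e-06 and 7.03e-08). LOX3 was low everywhere, and its level was 0.747 and 0.676 FPKM under water deficit, against 1.75, 1.99 and 1.70 FPKM in controls. That change of -0.72 ± 0.13 (SE, limma adjusted p = 0.000279) was lost without replicate 2 or 3.

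GLYMA_07G034900 again differed from the rest of the family. Its flower level was 399, 364 and 397 FPKM under acidity with water deficit, its highest group, against 216, 225 and 233 FPKM in controls. The stressed libraries were all above the controls, and the change was 0.78 ± 0.06 (SE, limma adjusted p = 2.03e-11), where 21% of all features were called and 13% higher. The 3 treatments in which it was not called were acidity, low phosphate and both together. Acidity gave 214 and 234 FPKM and a change of -0.01 ± 0.07 (SE, limma adjusted p = 0.986), with an interval from -0.15 to 0.14. Under 5 stresses it was at 333, 358 and 349 FPKM in flowers, a change of 0.62 ± 0.06 against control (SE, limma adjusted p = 1.38e-08). The 5-stress minus the 4-stress combination was 0.22 ± 0.07 in flowers and was not called (SE, limma adjusted p = 0.158), where none of the 6 genes and 0.503% of features were called, and 2 genes had an unadjusted p under 0.05.

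Acidity combined with water deficit had 2 of the 6 genes called lower, GLYMA_13G347700 and LOX3, and GLYMA_07G034900 higher, where 8.03% of features were called lower. The call for GLYMA_13G347700 was lost without replicate 3 and that for LOX3 when only the groups compared were fitted. GLYMA_15G026500 was at 1093, 1078 and 992 FPKM under the pair, above all libraries of acidity alone (634 and 724 FPKM) and of water deficit alone (870 and 801 FPKM) and below the controls (1215, 1275 and 1266 FPKM). GLYMA_15G026400 was at 1354, 1297 and 1274 FPKM under the pair, above every control, with a change of 0.19 ± 0.08 that was not called (SE, limma adjusted p = 0.0888). The interaction of acidity and water deficit was positive and called for 5 of the 6 genes, where 7.6% of all features were called and 2.44% were called higher. It was 0.45 ± 0.05 for GLYMA_15G026500, 0.41 ± 0.05 for GLYMA_13G347700 and 0.35 ± 0.05 for GLYMA_15G026400 (SE, limma adjusted p = 9.03e-09, 7.71e-07 and 2.79e-06), and these 3 calls held under every alternative tried. For GLYMA_07G034800 it was 0.32 ± 0.06 and for LOX3 0.35 ± 0.08 (SE, limma adjusted p = 0.000171 and 0.00445), and both were lost without replicate 2 or 3. GLYMA_07G034900 had an interaction of 0.06 ± 0.05 that was not called (SE, limma adjusted p = 0.548).

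Among the other flower combinations, salinity with acidity called GLYMA_07G034900 higher and GLYMA_07G034800 and GLYMA_15G026500 lower, where 10.3% of features were called, 6.68% higher and 3.6% lower. Acidity with low phosphate called 3 genes lower, where 6.13% of features were called and 2.2% lower. Salinity with water deficit, salinity with low phosphate and water deficit with low phosphate each called GLYMA_07G034900 higher and 1 gene lower, LOX3 with salinity and GLYMA_13G347700 in the last pair. The features called in these pairs were 4.65% (2.91% higher, 1.74% lower), 1.87% (0.775% higher, 1.1% lower) and 5.38% (2.72% higher, 2.66% lower). Of the 12 calls in these 5 pairs, those of GLYMA_07G034900 under salinity with water deficit and water deficit with low phosphate held under every alternative, and the other 10 were lost without replicate 2.

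In flowers under 3 or more stresses, the 2 triples with both acidity and low phosphate called GLYMA_07G034900 higher and 3 genes lower, LOX3, GLYMA_13G347700 and GLYMA_15G026500. With salinity 9.55% of features were called there, 5.99% higher and 3.55% lower, and with water deficit 10.1%, 5.79% higher and 4.31% lower. Salinity, acidity and water deficit called GLYMA_07G034900 alone, where 7.88% of features were called and 4.06% higher, and so did the 4-stress combination, where 3.48% were called and 2.27% higher. The call in the first of these held under every alternative, that in the 4-stress combination was lost without replicate 2 or 3, and each call in the 2 triples with acidity and low phosphate was lost without replicate 2 or without replicate 3. Under salinity, water deficit and low phosphate GLYMA_15G026400 reached its highest flower group, 1549, 1376 and 1259 FPKM, against 1093, 1166 and 1179 FPKM in controls. All 3 stressed libraries were above the controls, 2 genes were called higher where 11.3% of features were called and 6.9% higher, and the change of 0.28 ± 0.08 (SE, limma adjusted p = 0.0222) was lost without any 1 of the replicate numbers.

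Of the flower main effects, 15 of 24 were called. Acidity lowered GLYMA_15G026500, with an effect of -0.21 ± 0.02, and GLYMA_13G347700, with -0.19 ± 0.03 (SE, limma adjusted p = 3.03e-08 and 2.51e-06), and 4 of the 6 genes in all, where 12.7% of features were called and 5.1% lower. Water deficit raised GLYMA_07G034900 by 0.34 ± 0.02 and GLYMA_15G026400 by 0.14 ± 0.02 (SE, limma adjusted p = 6.99e-13 and 2.67e-05). These were 2 of 6 called higher, and LOX3 was called lower, where 20.9% of features were called, 10.4% in each direction. Against control, water deficit alone had GLYMA_15G026400 called lower, at 0.766 times its control mean. Salinity had 4 genes called, all higher, where 3.98% of features were called and 1.74% higher. The largest effect, 0.22 ± 0.03, was that of GLYMA_13G347700 (SE, limma adjusted p = 9.35e-07). Salinity alone put GLYMA_13G347700 and GLYMA_15G026500 at 0.832 and 0.842 times their control means. All those libraries were below the controls, and neither change was called. Low phosphate also had 4 genes called higher, by 0.10 to 0.16, where 4.23% of features were called and 2.03% higher. None of these 4 low-phosphate calls was kept without replicate 2. Of the 4 salinity calls that of GLYMA_13G347700 was kept in every alternative, while GLYMA_15G026400 and GLYMA_15G026500 were lost without any 1 of the replicate numbers and GLYMA_07G034900 without replicate 2. The acidity effects on GLYMA_07G034800 and GLYMA_15G026400 and the water-deficit effect on LOX3 were also lost without replicate 2. Of the other flower interactions, salinity with water deficit called 3 genes higher and GLYMA_07G034900 lower, where 3.19% of features were called, 1.62% higher and 1.57% lower. Salinity with acidity called LOX3 higher and GLYMA_07G034900 lower, where 1.26% were called, 0.704% higher and 0.553% lower, and salinity with low phosphate called GLYMA_13G347700 lower, where 1.42% were called and 0.746% lower. Each of these 7 calls was lost without replicate 3. Low phosphate with acidity and with water deficit called none of the 6 genes (limma), where 1.03% and 1.6% of features were called and 3 and 2 genes had an unadjusted p under 0.05.

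Cadmium alone lowered the 5 flower members other than GLYMA_07G034900, and in the 5-stress combination no member was called lower than control and GLYMA_07G034900 was called higher, where 17.6% of features were called and 11.4% higher. GLYMA_13G347700 was at 231, 342 and 332 FPKM under 5 stresses and 301 and 313 FPKM under 4, and at 186, 188 and 192 FPKM under cadmium alone, against 324, 325 and 333 FPKM in controls. The first 5-stress library lay below the other 2 for all 6 tested genes, for instance at 811 FPKM for GLYMA_15G026500, against 1344 and 1243 FPKM. The effect of cadmium on top of the 4 stresses minus its effect alone was positive and called for 5 of the 6 genes, at 0.52 to 0.75, where 3.78% of features were called and 1.2% higher. GLYMA_15G026500 gave 0.75 ± 0.14 and GLYMA_13G347700 0.74 ± 0.13 (SE, limma adjusted p = 0.00109 and 0.000538). The 5 calls were kept without the first 5-stress library, and all 5 were lost without replicate 2, without replicate 3 and when only the 4 groups compared were fitted.

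The main effects in leaves and flowers were compared in 1 fit over both tissues, as the effect in leaves minus that in flowers, for the 5 genes tested in both. Of 20 such differences, 15 were called, where the share of all features called was 57.9% for the salinity effect, 49.2% for that of acidity (25.3% with the higher effect in leaves), 36.4% for water deficit and 18% for the low-phosphate effect. By direction, salinity had 3 members with the higher effect in leaves and 2 with the lower, where 32.8% and 25.1% of features were called so. Water deficit had 2 higher and 1 lower, against 11.5% and 24.8% of features, and low phosphate 4 lower, against 13%. Without replicate 2 the differences of GLYMA_07G034900 for water deficit and low phosphate and of GLYMA_15G026500 for low phosphate were lost. GLYMA_07G034800 differed most. Its salinity effect was 0.74 in leaves and 0.02 in flowers, a difference of 0.72 ± 0.06, and its acidity effect was 0.43 in leaves and -0.09 in flowers, a difference of 0.52 ± 0.06 (SE, limma adjusted p = 1.18e-17 and 6.56e-12). GLYMA_15G026400 behaved likewise, with differences of 0.53 ± 0.07 for salinity and 0.50 ± 0.07 for acidity (SE, limma adjusted p = 8.66e-09 and 7.39e-08). GLYMA_13G347700 and GLYMA_15G026500 had the lower salinity main effect in leaves, with differences of -0.21 ± 0.04 and -0.22 ± 0.05 (SE, limma adjusted p = 2.22e-06 and 5.37e-05). Salinity alone against control had the reverse order. GLYMA_13G347700 was at 1.46 times its control mean in leaves and 0.832 times in flowers, and GLYMA_15G026500 at 1.07 and 0.842 times. That order was not tested between the tissues. For acidity these 2 genes had differences of 0.00 ± 0.04 and 0.04 ± 0.05 that were not called, with intervals from -0.08 to 0.08 and from -0.05 to 0.14.

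Treatments next to each other in the order of their means mostly overlapped. When the 18 treatment means of a gene were ranked in leaves, the ranges of 14 to 16 of the 17 neighbouring pairs overlapped for the 5 expressed genes. In flowers 13 to 16 of the 17 pairs overlapped for the 6 tested genes. The same count over all features was not computed, so it shows nothing particular to these genes. In flowers the controls ranked second of 18 for GLYMA_15G026500 and 16th for GLYMA_07G034900.

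Across the 18 treatment means of log2(FPKM + 1), GLYMA_13G347700 and GLYMA_15G026500 followed each other in flowers (r = 0.924), and so did GLYMA_15G026400 and GLYMA_15G026500 (r = 0.895). In leaves the highest values among members were 0.727 for GLYMA_13G347700 with GLYMA_15G026500 and 0.722 for GLYMA_15G026400 with GLYMA_07G034800. The share of features with a higher r with the first gene was 0.0384% for the former pair and 3.51% for the latter. GLYMA_07G034900 and GLYMA_15G026500 had r = -0.387 in leaves. These correlations describe treatment means of the same libraries and carry no test.

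Outside the 8 genes, the feature most like GLYMA_07G034900 in leaves was GLYMA_08G174700 (r = 0.916 over 18 treatment means), and 0.00349% of features had an r over 0.9 with GLYMA_07G034900. GLYMA_07G006900 was the most like feature for 3 profiles, GLYMA_13G347700 (r = 0.884) and GLYMA_15G026500 (r = 0.875) in leaves and GLYMA_15G026500 (r = 0.921) in flowers. GLYMA_13G347800, whose ID follows that of GLYMA_13G347700, was most like GLYMA_15G026400 in flowers (r = 0.940). It lay at 7.07 to 33.3 FPKM in leaf libraries and 387 to 697 FPKM in flower libraries, and was called higher than control in 14 of 17 leaf treatments. The files give it no name, and whether it or the other features named here are lipoxygenases was not checked. The remaining best matches were GLYMA_10G020900 for GLYMA_15G026400 (r = 0.888) and GLYMA_14G062500 for GLYMA_07G034800 (r = 0.866) in leaves. In flowers they were GLYMA_13G321700 for GLYMA_13G347700 (r = 0.939), GLYMA_01G185400 for LOX3 (r = 0.836), GLYMA_02G269200 for GLYMA_07G034800 (r = 0.843) and GLYMA_11G249000 for GLYMA_07G034900 (r = 0.880).

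The 18 other IDs within 3 steps of 100 of a member were in both tables, and 10 passed the filter in leaves and 11 in flowers. In leaves the 10 features were called higher in 0 to 14 and lower in 0 to 5 of the 17 treatments, which share their controls. Over all 170 of these comparisons 50.6% were called higher and 8.24% lower, where all tested features had 20.2% higher and 25.2% lower. In flowers the 11 features were called higher in 0 to 1 and lower in 0 to 3 treatments. Over those 187 comparisons 0.535% were called higher and 7.49% lower, where all tested features had 5.85% higher and 3.68% lower.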

How the data were processed

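The authors deposited FPKM values, 1 table per tissue, and the submitters' processing notes name HISAT2 2.2.1. The counting tool, genome build and annotation are not given in the sources used here. Relative depth came from the steps of low values, of which 80.8% in leaves and 82.9% in flowers were whole reads to within 0.1, against 20% by chance. FPKM hold no counts, so no counting intervals were computed and n of 2 or 3 limits the precision. The 4 columns that are averages matched the mean of the other 2 at 99.8% or more of features, and other columns at no more than 0.0777% (relative tolerance).

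Groups came from the sample labels. Tested features averaged 1 FPKM or more, 28678 in leaves, 33792 in flowers and 27337 in both. limma 3.58.1 (R 4.3.3) was fitted on log2(FPKM + 1), a scale that understates the change of low genes, with 1 mean per group and empirical Bayes moderation (trend and robust). Calls had a two-sided Benjamini-Hochberg adjusted p under 0.05. The fits were tested on simulated data. Tables used pandas 2.3.3 and numpy 2.4.6 in Python 3.11.15, and plots matplotlib 3.10.9. Alternatives were a pseudocount of 0.1 FPKM, no filter, scaling to the median ratio, the averaged columns counted as libraries, each replicate number left out, a replicate block and fits of the compared groups alone. A fit without the first flower 5-stress library was added after seeing the data.

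Replicates are pooled plants that the labels call biological repeats, and p-values measure the spread between these pools. The members and the rule for other features, which names the best-correlated feature per member and the neighbouring IDs, were chosen with earlier results of these data known. Lists of pathway genes, other lipoxygenases and tissue markers need gene names and were not used here, and no sequences were at hand.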

Additional observations from a re-analysis of the deposited data

Results flagged for a closer look

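Effects of a stress that differed between the 2 tissues are listed here as the main effect in leaves minus that in flowers, on the log2(FPKM + 1) scale, each past a limma adjusted p of 0.05 in 1 fit over both tissues. For salinity the differences were 0.72 for GLYMA_07G034800, 0.53 for GLYMA_15G026400, 0.23 for GLYMA_07G034900, -0.21 for GLYMA_13G347700 and -0.22 for GLYMA_15G026500. For the last 2 genes, salinity alone against control had the reverse order between the tissues, which was not tested. For acidity they were 0.52 for GLYMA_07G034800, 0.50 for GLYMA_15G026400 and 0.33 for GLYMA_07G034900. For water deficit they were 0.27 for GLYMA_13G347700, 0.18 for GLYMA_07G034900 and -0.27 for GLYMA_15G026400. For low phosphate they were -0.30 for GLYMA_07G034800, -0.20 for GLYMA_07G034900, -0.17 for GLYMA_13G347700 and -0.17 for GLYMA_15G026500. Of these 15, the water deficit difference of GLYMA_07G034900 was lost without replicate 2, and the low-phosphate differences of GLYMA_07G034900 and GLYMA_15G026500 were lost under scaling to the median ratio and without replicate 2 or 3.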

How the results depend on the processing

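Of 184 changes of the members that were called, 99 stayed called under every alternative run for them, 85 were lost under at least 1, and none reversed. Leaving out a replicate number, which takes 1 library from nearly every group at once, cost the most: 30 calls were lost without replicate 1, 73 without replicate 2 and 56 without replicate 3. Over these 3 fits, the count against control ran from 44 to 53 in leaves (54 with all libraries) and from 18 to 46 in flowers (46). It ran from 4 to 7 for the leaf cadmium comparisons (7), 0 to 6 for the flower cadmium comparisons (5), 5 to 10 for flower main effects (15) and 3 to 8 for flower interactions (12). The flower cadmium comparisons also gave 0 calls when only the groups compared were fitted, in a fit of fewer libraries. At an unadjusted p under 0.05 there were 6 changes in that fit, 6 without replicate 2 and 5 without replicate 3 (limma), against 7 with all libraries. Scaling to the median ratio lost 8 calls, the fit without a filter 5 and the pseudocount of 0.1 FPKM 1. Scaling moved the median of all features by up to 0.27 in the leaf comparisons with control, and by over 0.1 in 5 of the 17. Counting the averaged columns as libraries lost none.

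With the replicate number as a block, 54 changes were called against control in leaves and 46 in flowers, and 15 of the leaf interactions. The block ended 1 call, the leaf salinity by low phosphate interaction of GLYMA_07G034900. Same-numbered libraries did not in general deviate together: the median correlation was 0.00224 in leaves and 0.00111 in flowers. Single pairs reached 0.313 in leaves and 0.300 in flowers, and 14 of 51 and 19 of 45 libraries correlated best with their own number. Whether some same-numbered libraries share a batch cannot be read from these values. The absolute depth is unknown, which leaves the precision of LOX1 and LOX2, at a few hundredths of an FPKM, undetermined.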

Other observations

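Summed over the 8 genes, the flower 5-stress libraries were at 2754 to 3970 FPKM, against 3404 to 3614 FPKM in flower controls. Flowers under acidity alone had 2057 and 2308 FPKM and under cadmium alone 2343 to 2459 FPKM.

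Without the filter on low values, 157 further comparisons of members were fitted, of the seed lipoxygenases in the tissues where they had not passed it, and 1 was called, the difference between leaves and flowers in the water deficit effect on LOX3. As LOX3 was listed at 0 in 48 of 53 leaf libraries and did not exceed 0.0351 FPKM there, that difference rests largely on its flower effect. The share of all features called in that fit is not given here.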
